A study of Mus musculus with 22 samples.

Results

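A set of 10 genes of the vascular endothelium and of the barrier between blood and nervous tissue were followed in whole spinal cord during normal aging and in a mouse model of amyotrophic lateral sclerosis (ALS). They were taken by name from the 21995 genes of the count table, and all 10 were measured well enough to be tested in both comparisons. Claudin-5 (Cldn5), occludin (Ocln) and Pecam1 belong to the junctions between endothelial cells. Slc2a1, Mfsd2a and Abcb1a are transporters of the barrier. Vwf encodes von Willebrand factor. Flt1, Kdr and Tek are receptors for vascular growth factors. The question was whether their transcript levels differed between old and young wild-type mice, and between ALS mice and their wild-type controls.

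Capillaries of the spinal cord are lined by endothelial cells joined by tight junctions, and these cells carry transporters that let in glucose and lipids and return many drugs to the blood. Signals through the VEGF receptors and through the receptor TEK, also called TIE2, keep such vessels alive and quiescent. Loss of tight junction proteins, of MFSD2A or of pericyte contact is known to make the barrier leak.

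Each library was made from the whole spinal cord of 1 mouse, and all mice were labelled C57BL/6. For aging, 8 young wild-type mice of 3 to 4 months were set against 8 old wild-type mice of 18 to 24 months, all male, with libraries made by the Roche KAPA HyperPrep kit. For ALS, 3 mice of genotype G93a were set against 3 wild-type control mice, both of 5 to 6 months per the labels, with the same mix of females and males in each group and libraries made by the Illumina TruSeq kit. G93a mice carry a mutant human SOD1 transgene under its own promoter, and so in most cell types, and are a model of 1 inherited form of the disease. Kit, age and sex makeup differ between the experiments, so levels were compared within an experiment only.

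Total counts ranged from 5078092 to 9358055 in young, 5664869 to 9145600 in old, 10693060 to 13219797 in control and 9675610 to 11872431 in G93a libraries. The lowest count of any of the 10 genes in any library was 53. Sod1 stood at 156 to 168 CPM (the count set against the TMM-scaled total of its library) in the controls and at 296 to 335 CPM in the G93a mice, although the transgene is human and the counts were made on the mouse genome, so that row checks the labels only indirectly. Of 12 other endothelial identity genes, such as Cdh5, Tie1 and Egfl7, all were high enough to be tested in both experiments, with a summed level of 159 to 182 CPM in young and 158 to 193 CPM in control mice. Libraries are numbered here within each group, as names only.

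Compared per transcript length, in FPKM, the glucose transporter Slc2a1 was the most abundant of the 10 genes in every group, with means of 64.2 FPKM in young, 75.0 in old, 68.0 in control and 83.5 in G93a mice. Its range did not overlap that of Mfsd2a, which came next at 16.4 to 29.0 FPKM across the 4 group means. Mfsd2a and Cldn5 overlapped in every group, so their order was not resolved by the spread. Flt1 followed at 13 to 14.8 FPKM. Abcb1a and Pecam1 came next in young, old and control mice, and in G93a mice Vwf lay between them. Kdr was at the bottom in old, control and G93a mice, at 2.55, 2.49 and 1.36 FPKM, and its range overlapped that of the next gene up in each, which was Tek in old and G93a and Vwf in control mice. Flt1 was thus the more abundant of the VEGF receptors, above Kdr in every library.

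**Figure D1:**
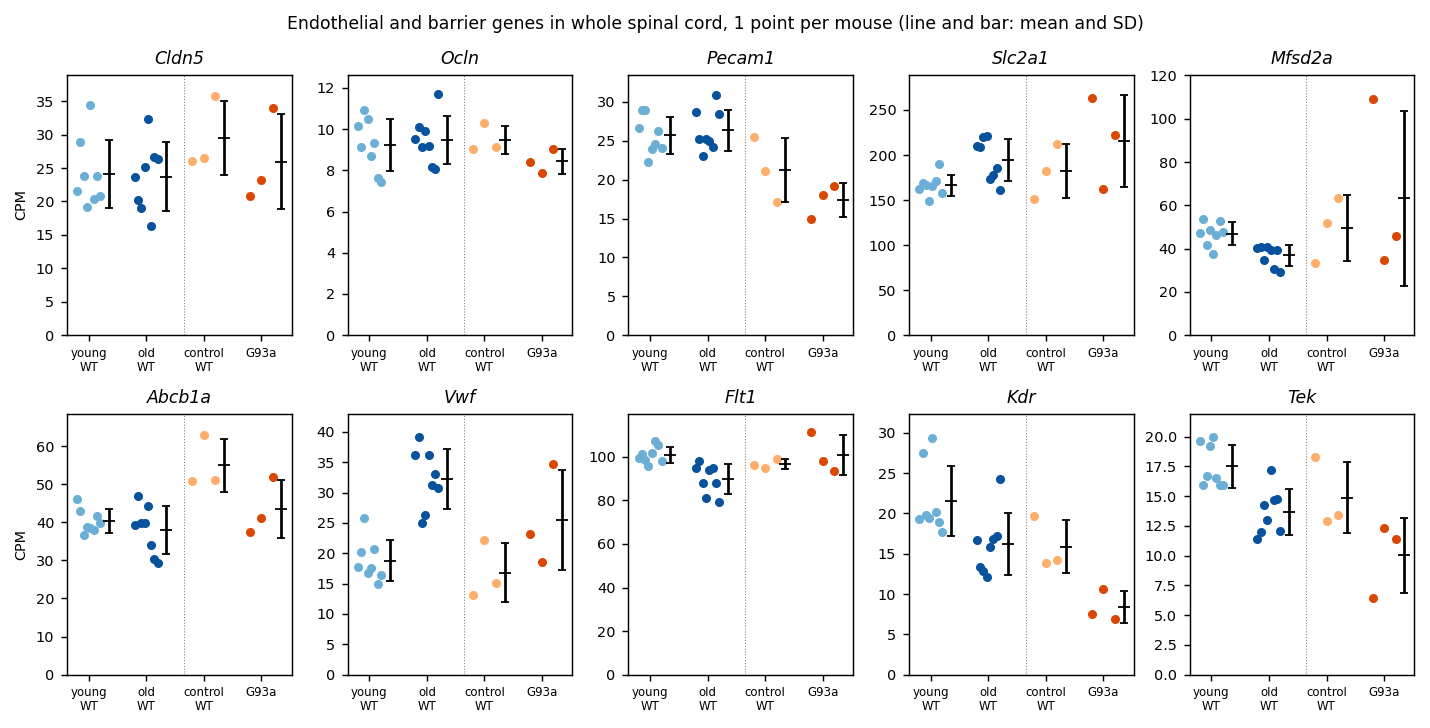
Level of each of the 10 genes in CPM (linear axis from 0), 1 point per mouse, in 8 young, 8 old, 3 control and 3 G93a mice, with the mean and SD beside the points. Vwf is higher and Mfsd2a, Flt1, Kdr and Tek are lower in most old mice, and in G93a mice Kdr and Tek lie below all 3 controls.

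With age, 6 of the 10 genes changed at an adjusted p under 0.05 in edgeR's quasi-likelihood test, 2 rising (Vwf and Slc2a1) and 4 falling (Mfsd2a, Flt1, Kdr and Tek). Among all 13647 genes tested, 26.4% changed, 13.5% rising and 12.9% falling. None of the 10 also passed the study's limit of a log2 fold change beyond 1, which 2.18% of genes passed upward and 0.044% downward. None had old and young groups that did not overlap, which 3.66% of genes had with higher and 1.66% with lower old levels. The 10 log2 fold changes had a median of -0.06, and those of all genes one of -0.0027. In whole tissue, fewer cells of a type and less RNA per cell cannot be told apart, for these genes and for all that follow.

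On counts, none of the 3 junction genes passed the test with age. Cldn5 (ENSMUSG00000041378, chr16:18776847-18778262 on GRCm38, plus strand), the main claudin of the barrier, had a lowest, median and highest level of 19.2, 22.6 and 34.4 CPM in young and of 16.3, 24.4 and 32.4 CPM in old mice. The groups overlapped almost fully, and the log2 fold change of -0.03 had a 95% interval from -0.30 to 0.23 (edgeR adjusted p = 0.882). Ocln (ENSMUSG00000021638, chr13:100496507-100552718, minus strand), a second tight junction protein, measured 7.45, 9.22 and 10.9 CPM in young and 8.06, 9.35 and 11.7 CPM in old mice, a log2 fold change of 0.04 (interval -0.17 to 0.25). In the deposited FPKM the Ocln change was larger, from a mean of 3.22 to 4.22, with a limma log2 fold change of 0.30 (adjusted p = 0.0882). Pecam1 (ENSMUSG00000020717, chr11:106654217-106750628, minus strand), the adhesion protein CD31, measured 22.3, 25.4 and 28.9 CPM in young and 23.0, 25.2 and 30.8 CPM in old mice. Its log2 fold change was 0.03, with the narrowest interval of the 3 junction genes, from -0.12 to 0.18. Changes of more than about 0.3 on the log2 scale in either direction thus lay outside all 3 count-based intervals.

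The barrier transporters moved apart. Slc2a1 (ENSMUSG00000028645, chr4:119108711-119137983, plus strand), the glucose transporter GLUT1, had a lowest, median and highest level of 149, 166 and 191 CPM in young and of 161, 197 and 221 CPM in old mice. The groups overlapped, with 7 of 8 old mice above the young median, and Slc2a1 rose by a log2 fold change of 0.23 ± 0.06 (SE, edgeR adjusted p = 0.00956). Mfsd2a (ENSMUSG00000028655, chr4:122946850-122961188, minus strand), which carries lysophospholipids of docosahexaenoic acid into nervous tissue and limits vesicle transport across the endothelium, measured 37.5, 47.4 and 53.7 CPM in young and 29.2, 39.3 and 40.8 CPM in old mice. All 8 old mice were below the young median and 7 of 8 young mice were above every old one. Mfsd2a fell by 0.34 on the log2 scale (SE 0.08, edgeR adjusted p = 0.00265). Abcb1a (ENSMUSG00000040584, chr5:8660077-8748575, plus strand), the efflux pump P-glycoprotein, measured 36.6, 39.3 and 46.1 CPM in young and 29.2, 39.6 and 47.1 CPM in old mice, with 3 old mice below all young ones and 1 above. Its log2 fold change of -0.08 had an interval from -0.25 to 0.09 (edgeR adjusted p = 0.518).

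The rise of Slc2a1 and the fall of Mfsd2a held in all 16 fits that left out 1 library. The call for Slc2a1 was lost in the fit of all 22 libraries (adjusted p = 0.0567), in limma on log2(FPKM + 1) (adjusted p = 0.0629) and when libraries were scaled to the 12 endothelial identity genes (log2 fold change 0.08, adjusted p = 0.377) or to these without Cd34 and Fli1 (adjusted p = 0.0989), and that for Mfsd2a in the fit of all 22 libraries (adjusted p = 0.146).

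Vwf had the largest change with age of the 10 genes. Vwf (ENSMUSG00000001930, chr6:125546774-125686679, plus strand), the adhesive protein stored in endothelial cells and platelets that tethers platelets to injured vessel walls, had a lowest, median and highest level of 15, 17.7 and 25.8 CPM in young and of 25.0, 32.2 and 39.2 CPM in old mice. Of the old mice, 7 of 8 were above every young mouse, and the remaining one was above all young mice but the highest. The rise was 1.71-fold, a log2 fold change of 0.77 ± 0.105 (SE, edgeR adjusted p = 6.89e-06), and the call held in all 8 other settings and all 16 fits without 1 library. Of 6 tested genes of red cells and platelets, none passed the test with age, all 6 having positive log2 fold changes with a median of 0.35, and the summed level of that list ran from 309 to 666 CPM in young and from 395 to 1100 CPM in old mice. Itga2b, the platelet integrin, stood at a median of 1.52 CPM in young and 2.37 CPM in old mice (adjusted p = 0.0764), and its part in the Vwf result was not tested.

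All 3 growth factor receptors were lower in old mice. Flt1 (ENSMUSG00000029648, chr5:147561604-147726011, minus strand), VEGF receptor 1, which binds VEGFA tightly and signals weakly, had a lowest, median and highest level of 96.1, 100 and 107 CPM in young and of 79.2, 90.9 and 98.3 CPM in old mice. It fell by 0.17 on the log2 scale (SE 0.05, edgeR adjusted p = 0.00927), with 7 of 8 old mice below every young mouse. Kdr (ENSMUSG00000062960, chr5:75932827-75978458, minus strand), VEGF receptor 2, the main signalling receptor for VEGFA, measured 17.7, 19.6 and 29.4 CPM in young and 12.2, 16.3 and 24.3 CPM in old mice. Again 7 of 8 old mice lay below every young one. The exception, old library 8 at 24.3 CPM, was also the old library with the lowest Flt1, Mfsd2a, Slc2a1 and Abcb1a. Kdr fell by 0.44 on the log2 scale (SE 0.13, edgeR adjusted p = 0.0148), and by 0.54 without that library (adjusted p = 0.00179). Tek (ENSMUSG00000006386, chr4:94739289-94874976, plus strand), the receptor for the angiopoietins, measured 15.9, 16.7 and 20 CPM in young and 11.4, 13.6 and 17.2 CPM in old mice. It fell by 0.36 on the log2 scale (SE 0.09, edgeR adjusted p = 0.00439), with 7 of 8 old mice below every young one. The Flt1 and Kdr calls were lost in limma on log2(FPKM + 1), at adjusted p = 0.0727 and 0.0511, and Flt1 also when libraries were scaled to the identity genes without Cd34 and Fli1 (adjusted p = 0.051). The Tek call held in every setting.

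**Figure D2:**
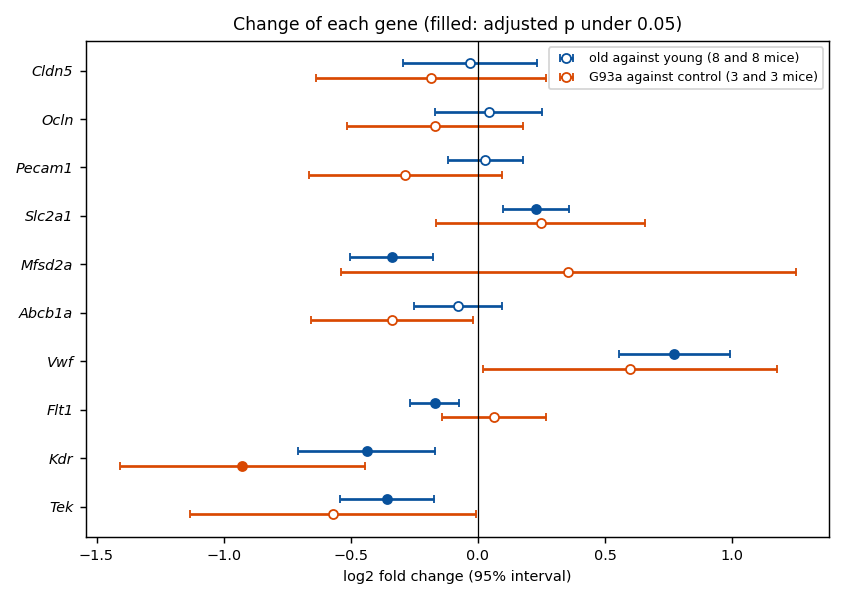
Log2 fold change of each gene with its 95% interval, old against young (8 and 8 mice, blue) and G93a against control (3 and 3 mice, orange), filled where the edgeR adjusted p is under 0.05. Of the aging changes 6 are filled, from -0.44 for Kdr to 0.77 for Vwf, and of the ALS changes only Kdr, at -0.93, while the ALS intervals are wider.

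The 4 genes that fell with age are shown with the 300 bases around their RefSeq start, 250 before and 50 after, on GRCm38.p6 and on the strand of the gene, since they are the members that moved the same way. Capitals mark matches, on either strand, to 8 short motifs: the ETS motifs CCGGAAG and CAGGAAG, the SOX motif AACAAT, the FOX motif TGTTTAC, the GATA motif AGATAA, the TCF/LEF motif CTTTGA, the GC box GGGCGG and the TATA box TATAAA.
Kdr, chr5:75978406-75978705, minus strand: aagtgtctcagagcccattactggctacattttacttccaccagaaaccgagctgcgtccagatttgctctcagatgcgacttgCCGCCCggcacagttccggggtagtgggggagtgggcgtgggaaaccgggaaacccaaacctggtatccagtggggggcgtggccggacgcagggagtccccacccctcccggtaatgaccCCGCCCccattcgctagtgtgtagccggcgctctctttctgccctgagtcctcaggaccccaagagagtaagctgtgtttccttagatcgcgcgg
Flt1, chr5:147725962-147726261, minus strand: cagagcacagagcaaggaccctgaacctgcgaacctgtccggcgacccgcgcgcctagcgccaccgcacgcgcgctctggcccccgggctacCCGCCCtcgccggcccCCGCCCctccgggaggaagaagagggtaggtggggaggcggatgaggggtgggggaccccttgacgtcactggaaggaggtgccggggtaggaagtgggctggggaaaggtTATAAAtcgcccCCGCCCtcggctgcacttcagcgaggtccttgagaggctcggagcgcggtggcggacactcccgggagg
Tek, chr4:94739039-94739338, plus strand: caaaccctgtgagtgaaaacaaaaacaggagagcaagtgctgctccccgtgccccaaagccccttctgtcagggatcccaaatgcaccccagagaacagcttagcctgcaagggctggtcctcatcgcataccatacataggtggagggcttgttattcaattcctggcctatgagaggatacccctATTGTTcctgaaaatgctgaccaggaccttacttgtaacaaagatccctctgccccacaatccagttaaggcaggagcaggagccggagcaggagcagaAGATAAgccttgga
Mfsd2a, chr4:122961139-122961438, minus strand: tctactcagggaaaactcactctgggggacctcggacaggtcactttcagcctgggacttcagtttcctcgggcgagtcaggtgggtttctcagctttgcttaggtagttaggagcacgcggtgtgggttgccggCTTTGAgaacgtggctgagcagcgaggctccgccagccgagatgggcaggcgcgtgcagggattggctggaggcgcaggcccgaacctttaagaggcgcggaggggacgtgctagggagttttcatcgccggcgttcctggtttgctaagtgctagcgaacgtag
No motif was common to the 4 windows. Kdr held 2 GC boxes and Flt1 held 3, with a TATA box in Flt1 whose first base lies at position -31 from the start. Tek held a SOX match at -63 and a GATA match at 37, and Mfsd2a a TCF/LEF match at -115. GC boxes occur in 35.7% of 32851 RefSeq promoter windows of this length, SOX matches in 10.7%, GATA matches in 11.2%, TCF/LEF matches in 16% and TATA boxes in 13.6%. Neither ETS motif, found in 8.86% and 13.3% of windows, was in any of the 8 members with a promoter sequence. Pecam1 and Vwf were not matched. A match is a string of letters and not a measured binding site.

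In G93a mice, 1 of the 10 genes changed at an adjusted p under 0.05, Kdr, which fell. Among the 14386 genes tested, 33.9% changed, 18.4% rising and 15.5% falling. No member rose in edgeR's or DESeq2's test, and 1, Vwf, had an unadjusted p under 0.05 in that direction. Of the falling members 3, Abcb1a, Kdr and Tek, had an unadjusted p under 0.05. No member passed a log2 fold change beyond 1, which 8.5% of genes passed upward and 1.2% downward. The 10 log2 fold changes had a median of -0.18, and those of all genes one of 0.0031. With 3 mice a group the intervals were on average wider than in aging, and a change that missed the test here may not be absent.

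Kdr measured 13.8, 14.2 and 19.6 CPM in the 3 control mice and 6.89, 7.54 and 10.7 CPM in the 3 G93a mice. Every G93a mouse was below every control, at 0.526 times the control level, a log2 fold change of -0.93 ± 0.21 (SE, edgeR adjusted p = 0.0113). Tek measured 12.9, 13.4 and 18.3 CPM in control and 6.44, 11.4 and 12.3 CPM in G93a mice, again with no overlap, and its log2 fold change of -0.57 ± 0.25 did not pass the test (edgeR adjusted p = 0.106). Groups with no overlap and lower G93a levels were found for 24.7% of all genes tested, so 2 of 10 is no more than the background, and no member had separate groups with higher G93a levels, as 25.7% of genes had. Flt1 measured 94.8, 96.5 and 99.0 CPM in control and 93.7, 98.0 and 111 CPM in G93a mice. It had the narrowest interval of the 10 genes in the ALS comparison, from -0.14 to 0.27 around a log2 fold change of 0.06.

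The call for Kdr held in all 8 other settings, with adjusted p from 0.000812 to 0.0314. It was lost when G93a library 3, which had the lowest Kdr level, was left out (log2 fold change -0.80, adjusted p = 0.0582). Without G93a library 2, which had the highest Kdr level, 4 members were called, Kdr (-1.13, adjusted p = 0.00117) and Tek (-0.74, adjusted p = 0.0368) lower, and Vwf (0.78, adjusted p = 0.0176) and Slc2a1 (0.42, adjusted p = 0.0248) higher. The fit of all 22 libraries likewise called 4, with Abcb1a (-0.37, adjusted p = 0.0327) in place of Slc2a1.

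Vwf measured 13.1, 15.1 and 22.2 CPM in control and 18.6, 23.1 and 34.6 CPM in G93a mice, with 2 of 3 G93a mice above all controls. Its log2 fold change of 0.60 ± 0.26 did not pass the test (edgeR adjusted p = 0.101). Slc2a1 measured 152, 183 and 212 CPM in control and 162, 223 and 263 CPM in G93a mice, a log2 fold change of 0.25 ± 0.18 (edgeR adjusted p = 0.325), and the groups overlapped.

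Relative to its mean, Mfsd2a had the widest spread of the 10 genes in the G93a mice, with an SD of 63.7% of the mean. It measured 33.2, 51.8 and 63.3 CPM in control and 34.5, 45.8 and 109 CPM in G93a mice. The log2 fold change of 0.36 ± 0.39 rested on G93a library 1, at 109 CPM, and was -0.30 without it (adjusted p = 0.405). The same library held the highest Slc2a1 and Flt1 levels and the lowest Tek, Pecam1, Cldn5 and Abcb1a levels of its group. Without it the Flt1 log2 fold change was -0.01.

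Abcb1a measured 50.8, 51.3 and 63.0 CPM in control and 37.4, 41.1 and 52.0 CPM in G93a mice. The highest G93a mouse lay within the controls and the log2 fold change of -0.34 had an interval from -0.66 to -0.02 (edgeR adjusted p = 0.0943). It passed without G93a library 3 (-0.48, adjusted p = 0.0465). The junction genes leaned down with overlap. Cldn5 measured 26.1, 26.5 and 35.8 CPM in control and 20.8, 23.2 and 34.0 CPM in G93a mice (log2 fold change -0.18, edgeR adjusted p = 0.507). Ocln measured 9.02, 9.14 and 10.3 CPM in control and 7.86, 8.39 and 9.04 CPM in G93a mice (-0.17, adjusted p = 0.425). Pecam1 measured 17.1, 21.1 and 25.4 CPM in control and 15, 18.0 and 19.2 CPM in G93a mice (-0.29, adjusted p = 0.218). None of the 3 passed in any fit that left out 1 library.

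The difference between the ALS and the aging change was tested for each gene in 1 fit of all 22 libraries. None of the 10 differed at an adjusted p under 0.05, while 25.8% of 14502 genes did, 11.6% with a higher and 14.2% with a lower ALS change. At an unadjusted p under 0.05 there were 3, Mfsd2a (ALS minus aging 0.67 ± 0.30 SE on the log2 scale, adjusted p = 0.109), Flt1 (0.21 ± 0.09, adjusted p = 0.0974) and Pecam1 (-0.34 ± 0.16, adjusted p = 0.111), and DESeq2 called none. Leaving out 1 library gave 1 or 2 calls in 3 of the 22 fits. These were Pecam1 without control library 3 (adjusted p = 0.0281), Flt1 without old library 6 (adjusted p = 0.0315), and Mfsd2a and Kdr without G93a library 2 (adjusted p = 0.0075 and 0.0461). So the larger fall of Kdr in ALS than in aging, -0.93 against -0.44, was not resolved (difference -0.52 ± 0.26, adjusted p = 0.152), nor was any difference for Vwf (-0.20 ± 0.25, adjusted p = 0.592).

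Ratios within a library set these genes against each other without any scaling between libraries. Vwf stood at 0.57, 0.716 and 0.892 counts per count of Pecam1 (lowest, median and highest) in young mice and at 1.04, 1.17 and 1.55 in old mice, with no overlap. In the ALS experiment the same ratio was 0.515, 0.883 and 1.05 in control and 1.03, 1.54 and 1.81 in G93a mice, where the lowest G93a mouse lay just under the highest control. Kdr per count of Pecam1 was 0.686, 0.778 and 1.23 in young and 0.481, 0.572 and 0.853 in old mice. It was 0.653, 0.772 and 0.83 in control and 0.36, 0.503 and 0.592 in G93a mice, with no overlap. Kdr was thus lower relative to another endothelial transcript as well as relative to the whole library. Kdr per count of Flt1 was 0.144, 0.146 and 0.204 in control and 0.0677, 0.0735 and 0.109 in G93a mice, again with no overlap, and 0.18, 0.197 and 0.289 in young against 0.136, 0.173 and 0.307 in old mice, whose range held that of the young. Mfsd2a per count of Pecam1 was 1.45, 1.87 and 2.17 in young and 1.02, 1.46 and 1.62 in old mice. These ratios are descriptions and were not tested.

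**Figure D3:**
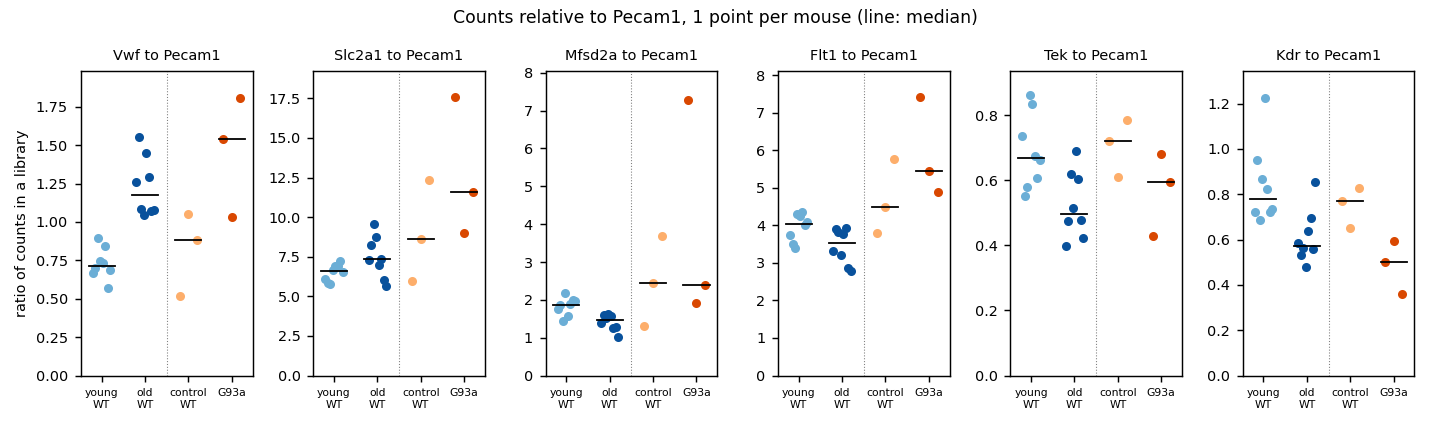
Counts of Vwf, Slc2a1, Mfsd2a, Flt1, Tek and Kdr divided by the count of Pecam1 in the same library (linear axes from 0), 1 point per mouse, with the group median as a line. Vwf to Pecam1 separates old from young mice completely (1.04 to 1.55 against 0.57 to 0.892), and Kdr to Pecam1 separates G93a from control mice (0.36 to 0.592 against 0.653 to 0.83).

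The ligands of the falling receptors were read from lists of pathway genes. Of 7 tested VEGF ligands and receptors outside the 10 genes, 1 rose and 1 fell with age, and in G93a mice 2 of 8 rose and 1 fell. Vegfa, the ligand of both Flt1 and Kdr, fell in old mice from a mean of 89.4 ± 12.8 to 70.3 ± 5.44 CPM (SD, n = 8 each, log2 fold change -0.35, edgeR adjusted p = 0.00114). It fell in G93a mice from 79.9 ± 6.95 to 55.8 ± 5.49 CPM (n = 3 each, -0.52, adjusted p = 0.00694), with no overlap and in every fit without 1 library. When libraries were scaled to the identity genes without Cd34 and Fli1, the fall in G93a mice was -0.25 (adjusted p = 0.242). Vegfb, which binds Flt1 and not Kdr, rose with age by 0.30 (adjusted p = 0.000207) and had a log2 fold change of -0.16 in G93a mice (adjusted p = 0.155), a difference that passed its test (-0.49, adjusted p = 0.000641). The rise with age was 0.16 under the scaling to identity genes and lost its call (adjusted p = 0.0663). The co-receptor Nrp1 was level with age (0.03, adjusted p = 0.804) and rose from 21.5 ± 1.14 to 35.9 ± 4.13 CPM in G93a mice (0.74, adjusted p = 0.00225).

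Around Tek, 1 of 3 tested genes rose with age and none fell, and in G93a mice 1 rose and 2 fell. Angpt1, its activating ligand, rose in G93a mice from 9.96 ± 0.591 to 29.4 ± 7.29 CPM, 2.95-fold (log2 fold change 1.56 ± 0.19, edgeR adjusted p = 0.000686). With age the change was 0.34 (adjusted p = 0.034), lost in 9 of 16 fits that left out 1 library, those without young library 1, 4, 5, 7 or 8 or old library 1, 2, 3 or 7 (adjusted p up to 0.078), in limma and under both scalings to identity genes (adjusted p up to 0.233). The change in ALS was the larger of the pair (difference 1.19 ± 0.21, adjusted p = 0.000233). Tie1, a partner receptor of TEK, had a log2 fold change of -0.01 with age and fell in G93a mice from 16.1 ± 2.08 to 10.8 ± 1.66 CPM (-0.58, adjusted p = 0.0244). Ptprb, the endothelial phosphatase that dampens TEK, was at -0.02 with age and fell by 0.40 in G93a mice (adjusted p = 0.0237). Both G93a calls were lost without control library 1, control library 2, G93a library 1 or G93a library 3, with adjusted p of up to 0.089 for Tie1 and 0.103 for Ptprb. Both were also lost in limma on log2(FPKM + 1) and under the scaling to identity genes without Cd34 and Fli1 (-0.32 and -0.14). The Tie1 and Ptprb changes differed between the comparisons in the main fit (adjusted p = 0.0156 and 0.0407). These differences were not refitted in other settings or without 1 library.

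Other junction genes did not move as a group with age, 1 of 9 rising and 1 falling, and in G93a mice 2 of 10 rose and 1 fell. F11r, the junction protein JAM-A that platelets and leukocytes also carry, rose by 0.44 with age (edgeR adjusted p = 0.013) and from 9.58 ± 1.9 to 25.1 ± 5.39 CPM in G93a mice (1.38, adjusted p = 0.0017). The rise with age was lost under the scaling to identity genes (0.29, adjusted p = 0.0903) and in limma on log2(FPKM + 1). Jam2 rose by 0.64 in G93a mice (adjusted p = 0.0126), a call lost without control library 1, control library 3 or G93a library 3 (adjusted p up to 0.0575). The scaffold protein Tjp1 fell by 0.17 with age (adjusted p = 0.0217), lost without young library 6 (adjusted p = 0.0515) and under the scaling to identity genes without Cd34 and Fli1 (adjusted p = 0.0818). Cgn, the junction adaptor cingulin, was the member of this list that fell in G93a mice (-0.67, adjusted p = 0.0204), and it is named after its value was seen. Cdh5, the endothelial cadherin, stood at 20 ± 1.35 CPM in young and 19.3 ± 1.44 CPM in old mice, and at 16.9 ± 1.85 CPM in control and 13 ± 1.13 CPM in G93a mice with no overlap (-0.38, adjusted p = 0.0646).

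Among 13 other barrier transporters, 3 rose and 1 fell with age, and 6 rose and 1 fell in G93a mice. Slc16a1, the monocarboxylate transporter that carries lactate and ketone bodies, rose by 0.23 with age (edgeR adjusted p = 0.00344) and by 0.95 in G93a mice (adjusted p = 0.00197). Slc3a2, the heavy chain of amino acid transporters, rose by 0.18 (adjusted p = 0.0012) and by 0.62 (adjusted p = 0.0192). Both rises with age were lost under either scaling to identity genes, at 0.09 and 0.04 for the full list, and that of Slc3a2 also in limma (0.09, adjusted p = 0.412). The G93a call of Slc3a2 was lost without any 1 of the 3 controls or G93a library 3 (adjusted p up to 0.0767). Abcb1b, the near relative of Abcb1a next to it on chromosome 5, had a log2 fold change of 0.36 with age (adjusted p = 0.143) and rose from 5.2 ± 0.718 to 13.6 ± 2.16 CPM in G93a mice (1.39, adjusted p = 0.00113), where Abcb1a was at -0.34. RSEM may share reads between the paralogs, so their split is uncertain. The transporters that fell were Slc38a5 with age (-0.89, adjusted p = 0.00135) and Slco1c1, a thyroid hormone carrier, in G93a mice (-0.39, adjusted p = 0.0375), both named after their values were seen.

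Of 5 tested genes of caveolae and fenestrae, 3 rose in each comparison and none fell. Cav1, the coat protein of caveolae, rose from 25.3 ± 1.76 to 35.6 ± 2.92 CPM with age (log2 fold change 0.50, edgeR adjusted p = 2.17e-06) and from 26.7 ± 3.59 to 37.7 ± 3.28 CPM in G93a mice (0.50, adjusted p = 0.0145). Neither pair of groups overlapped. Cav2 rose by 0.48 (adjusted p = 5.25e-05) and by 1.17 (adjusted p = 0.000246), and Cavin1 by 0.57 (adjusted p = 5.32e-07) and 0.73 (adjusted p = 0.0171). The calls with age held in every setting. In G93a mice the Cav1 call was lost without control library 1, control library 3 or G93a library 3 (adjusted p up to 0.0606) and under the scaling to identity genes (adjusted p = 0.0716). That of Cavin1 was lost without any 1 of the controls or G93a library 3 (adjusted p up to 0.073). Plvap, the diaphragm protein of leaky vessels, stood at 7.39 ± 0.767 CPM in young and 8.75 ± 1.22 CPM in old mice (adjusted p = 0.0952) and at 9.65 ± 0.935 and 8.99 ± 2.4 CPM in control and G93a mice (adjusted p = 0.739). Cavin2, named after its values were seen, was level with age (0.03, adjusted p = 0.897) and went from 17.1 to 13.3 CPM in G93a mice, all 3 below every control (-0.37, adjusted p = 0.0544). Caveolar genes are expressed in other cell types as well.

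Genes of leukocyte adhesion and haemostasis, the company of Vwf, rose in 4 of 8 cases with age and 6 of 9 in G93a mice, and none fell. Icam1 rose 3.66-fold with age, from 2.79 ± 1.13 to 10.4 ± 2.28 CPM (edgeR adjusted p = 1.42e-07), and 5.61-fold in G93a mice, from 3.12 ± 0.34 to 17.6 ± 3.95 CPM (adjusted p = 0.000176). Plat, tissue plasminogen activator, rose 1.6-fold (adjusted p = 2.06e-05) and 3.32-fold (adjusted p = 0.000445). The selectins Sele and Selp had at most 3 counts in any library and were not tested. The median log2 fold change of this list was 0.31 with age and 1.48 in G93a mice.

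The WNT signals that induce and keep the barrier changed little with age, 2 of 13 genes rising and none falling, and 3 of 13 rose in G93a mice. Wnt7b, a ligand made by neurons and glia, rose by 0.32 with age (edgeR adjusted p = 0.00508) and by 0.95 in G93a mice (adjusted p = 0.003), the former lost under the scaling to identity genes (0.17, adjusted p = 0.124) and in limma (adjusted p = 0.053). Ndp, norrin, rose by 0.67 in G93a mice (adjusted p = 0.011), lost without G93a library 3 (adjusted p = 0.0562). Foxq1, a transcription factor of brain endothelium, rose with age from 3.76 ± 1.39 to 5.8 ± 0.904 CPM (0.59, adjusted p = 0.0175, and 0.0526 under the scaling to identity genes) and had a log2 fold change of -0.29 in G93a mice (adjusted p = 0.401). The difference between those changes passed its test (adjusted p = 0.0391) and was not refitted in other settings.

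Of the basement membrane on which the endothelium rests, 4 of 10 genes fell and 1 rose with age. In G93a mice 2 fell and 3 rose. The gene that rose with age was Nid2 (log2 fold change 0.67, edgeR adjusted p = 0.012). It had the largest change of the list in G93a mice, from 3.25 ± 1.38 to 14.7 ± 4.96 CPM (2.20, adjusted p = 0.0024). Hspg2 (0.96, adjusted p = 0.0134) and Lama5 (0.64, adjusted p = 0.024) also rose in G93a mice. All 3 were named after their values were seen. Nid1 fell from 45.6 ± 11.6 to 25.5 ± 3.35 CPM with age (log2 fold change -0.85, edgeR adjusted p = 2.45e-05) and from 35 ± 5.13 to 23.4 ± 3.91 CPM in G93a mice (-0.58, adjusted p = 0.0181). The collagen IV chain Col4a2 fell by 0.40 in each (adjusted p = 6.16e-05 and 0.0104), and Col4a1 fell by 0.39 with age (adjusted p = 0.000667) and was at -0.24 in G93a mice (adjusted p = 0.209). The G93a calls of Nid1 and Col4a2 were lost without G93a library 3 (adjusted p up to 0.0802 and 0.0548), that of Nid1 also without control library 1, and both in limma and under the scaling to identity genes without Cd34 and Fli1 (-0.30 and -0.12).

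Of the 12 endothelial identity genes, 2 rose with age and 2 rose and 1, Tie1, fell in G93a mice. Those that rose were Cd34 (log2 fold change 0.58 with age and 2.17 in G93a mice, edgeR adjusted p = 1.06e-07 and 0.00051) and Fli1 (0.71 and 1.31, adjusted p = 0.000428 and 0.00505), both of which are also expressed outside the endothelium. The median of the list was 0.11 with age and -0.24 in G93a mice. Scaling libraries to this list shifted the median of all genes by -0.15 with age and -0.07 in G93a mice, and without Cd34 and Fli1 by -0.05 and 0.27. Relative to those shifts Kdr still fell in both comparisons, and Vwf rose in both scalings with age.

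Of 9 pericyte genes none changed with age. In G93a mice 4 rose and 1 fell, with Cspg4 rising by 0.78 (edgeR adjusted p = 0.00824) and Notch3 by 0.60 (adjusted p = 0.00983, and 0.0502 without control library 2), and Rgs5 falling from 163 ± 24.9 to 115 ± 3.14 CPM (-0.50, adjusted p = 0.0125). The Rgs5 call was lost without control library 1 or 3 (adjusted p up to 0.0529) and under the scaling to identity genes without Cd34 and Fli1 (-0.22). The pericyte list did not move as a group in G93a mice, with a median log2 fold change of -0.01, 4 positive and 5 negative. Which cells carried Cspg4 or the other listed transcripts was not tested. Of 4 smooth muscle genes Tagln rose in both comparisons (1.14 and 2.20, adjusted p = 8.96e-06 and 0.000229) and Myh11 fell with age (-0.61, adjusted p = 0.00125), while Acta2 was at -0.07 and -0.41. Of 6 genes of the astrocyte endfeet that sheathe the vessels, 2 fell with age, Kcnj10 (-0.25, adjusted p = 0.00136) and Gja1 (-0.23, adjusted p = 0.00163). In G93a mice 4 of the 6 rose, among them Aqp4, the water channel of the endfeet, from 657 ± 56.0 to 1730 ± 285 CPM (1.40, adjusted p = 0.000271). The rise of Gja1 there (0.54, adjusted p = 0.0257) was lost without any 1 of the controls (adjusted p up to 0.101) and under the scaling to identity genes.

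Genes of some other cell types changed in both comparisons, and those of others in only 1. Among all genes tested, 26.4% changed with age and 33.9% in G93a mice. Of 6 tested microglial and leukocyte genes 5 rose with age and 4 in G93a mice, and the summed level of the list went from 162 to 185 CPM in young to 225 to 314 CPM in old mice, and from 173 to 211 CPM in control to 468 to 683 CPM in G93a mice. Of 6 neuronal genes 2 fell with age and 3 in G93a mice, with sums from 3520 to 3610 CPM in control and from 1590 to 2840 CPM in G93a mice. Of those 3, the Slc17a6 call held in 1 of 6 fits without 1 library, that without G93a library 2 (adjusted p up to 0.119 in the others), and the Snap25 call was lost without control library 2 or G93a library 3 (adjusted p up to 0.0672). Of 4 oligodendrocyte genes 1 rose and 2 fell with age and none changed in G93a mice. The one that rose, Mbp, lost its call in 8 of 16 fits without 1 library, those without young library 1, 2, 3 or 4 or old library 1, 3, 4 or 7 (adjusted p up to 0.0906), and in 5 of 8 other settings (log2 fold change down to 0.0074, adjusted p up to 0.945). Of the fibroblast genes none of 4 changed with age and 1 of 5, Col1a1, rose in G93a mice. Of the genes listed for lymphatic vessels, Pdpn, which astrocytes also make, rose in both comparisons and Prox1 fell with age. Prox1 had a mean of 58.7 CPM in young mice, against 0.212 CPM for Lyve1, which was too low to be tested. Ccl21a was at 0 in all but 1 young library. The Pdpn and Prox1 changes therefore cannot be assigned to lymphatic vessels. Of red cell and platelet genes only Itga2b changed, rising in G93a mice (1.25, edgeR adjusted p = 0.0454), a call lost in 5 of 6 fits without 1 library (adjusted p up to 0.166), all but that without G93a library 2. Of 3 choroid plexus and ependymal genes none changed with age and 2 rose in G93a mice. Of these, the Foxj1 call held in 1 of 6 fits without 1 library, that without G93a library 2 (adjusted p up to 0.168 in the others), and in 4 of 8 other settings, and the Ccdc153 call in 2 of 6, those without control library 2 or G93a library 2 (adjusted p up to 0.0893). Of the peripheral nerve genes Pmp22 rose in both comparisons, a call lost with age under both scalings to identity genes (adjusted p up to 0.5) and in G93a mice without any 1 of the controls or G93a library 3 (adjusted p up to 0.0952). The part of these shifts in the changes of the 10 genes was not tested.

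Within groups the 10 genes did not vary as a block. After the mean of the young or the old group was taken from each gene's log2 CPM, the 45 pairs had a median Pearson r of 0.023 over the 16 aging libraries, from -0.535 for Slc2a1 with Kdr to 0.59 for Mfsd2a with Abcb1a, and 25 pairs were positive. The transporters Slc2a1, Mfsd2a and Abcb1a had r of 0.478 to 0.59 with each other, and each had an r of -0.507 to -0.535 with Kdr. Old library 8, with the highest Kdr of the old mice, had their lowest Slc2a1, Mfsd2a and Abcb1a. Young library 5 had the highest Kdr and the lowest Mfsd2a of the young mice. How far these r rest on such single libraries was not tested. The points share library and depth, and these are descriptions only. The genes most like the mean deviation of the 10 over the same 16 libraries were Rapgef1 (r = 0.876), Abca1 (0.847), Ppp1r3b (0.825), Txndc11 (0.794) and Inpp5b (0.793). The median r was 0.03 for the endothelial identity genes and 0.015 for all 13647 genes.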

How the data were processed

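Spinal cord RNA was extracted with TRIzol and sequenced on the Illumina HiSeq platform. The authors aligned reads with STAR and counted them with RSEM on an Ensembl annotation of mm10, with SAMtools 1.3 named in the submitters' processing notes. The authors deposited RSEM expected counts, already whole numbers and not normalized, and a second table of log2 values, FPKM with 1 added before the log. Both held 21995 genes, of which 21842 were matched to a symbol. Whether counting used strand is not given in the sources used here. Columns name a group and a library but no replicate number.

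Each comparison was fitted on its own, on counts, with edgeR 4.0.16 in R 4.3.3: filterByExpr (minimum count 10, minimum total 15), TMM and the quasi-likelihood test, with p-values adjusted by Benjamini-Hochberg across the whole table and called at 0.05. The difference between comparisons was an interaction term over all 22 libraries. Intervals are 95%. FPKM values were taken back from the log2 table. Alternatives used DESeq2 1.42.0, limma 3.58.1 on log2(FPKM + 1), RLE factors, other filters, 1 fit of all libraries, scaling to endothelial genes, and leaving out each library. The edgeR step was tested on simulated data. Total counts per library limit precision, and the lowest count of a member was 53. P-values measure the spread between mice.

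The genes and lists were chosen with earlier results of these data known, the lists being written from general knowledge. Named were all 10 members, up to 3 genes per list with the smallest p in either comparison, Cdh5, Tie1, Vegfa, Abcb1b and Plvap, and the 5 genes most like the members. Cgn, Slc38a5, Slco1c1, Cavin2, Nid2, Hspg2 and Lama5 were named after their values were seen, as were Egfl7, Sele, Selp and Sod1. Some results are not reported here. Gene positions are from GENCODE M21 on GRCm38 and promoters from RefSeq.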

Additional observations from a re-analysis of the deposited data

Results flagged for a closer look

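The highest Kdr level among the 8 old mice, 24.3 CPM in old library 8, stood apart from the others of its group. Its gap to the next mouse was 0.583 of the range of the group, above the critical value for 8 samples. It was the shallowest old library. With 10 genes in each of the young and old groups tested in this way, chance alone marks about 1 group in 20.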

How the results depend on the processing

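No paired analysis was possible because the columns carry no replicate numbers. With age, 6 members changed (2 higher, 4 lower) in all 16 fits that left out 1 library. In limma on log2(FPKM + 1) 3 changed, 1 higher and 2 lower, and only 1 rose in the fit of all 22 libraries and under either scaling to identity genes. In G93a mice, leaving out 1 library gave 1 to 4 calls, 0 to 2 higher and 1 to 2 lower. The fit of all 22 libraries gave 4, 1 higher and 3 lower, the scaling to identity genes 2, both lower, and that without Cd34 and Fli1 (chosen after seeing the data) 2, 1 higher. The difference between comparisons gave 0 to 2 calls without 1 library. For genes other than the members, this difference was not refitted in other settings or without 1 library. Causes were not tested.

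Directions reversed for members and genes that had not passed the test. With age these were Ocln (-0.11 scaled to identity genes, -0.0092 without Cd34 and Fli1) and Pecam1 (-0.11, -0.0103, and -0.0163 in limma), and in G93a mice, scaled without Cd34 and Fli1, Cldn5 (0.0687), Ocln (0.0928) and Plvap (0.15). The Slc2a1 difference was 0.0164 with at least 10 counts in every library. Without 1 library the log2 fold change with age ranged from -0.11 to 0.0566 for Cldn5, -0.0019 to 0.077 for Ocln, -0.0069 to 0.0546 for Pecam1 and -0.0478 to 0.0324 for Tie1. In G93a mice it ranged from -0.30 to 0.65 for Mfsd2a, -0.0081 to 0.12 for Flt1 and -0.26 to 0.11 for Plvap. The difference ranged from -0.17 to 0.15 for Slc2a1, -0.48 to 0.047 for Vwf and -0.42 to 0.011 for Tek. Abcb1a passed with age when scaled to identity genes (-0.23, adjusted p = 0.0269). With 3 mice a group, the Kdr call in G93a mice was lost without G93a library 3 (-0.80).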

Other observations

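The deposited FPKM and counts differed for Ocln. Its mean rose from 3.22 ± 0.617 to 4.22 ± 0.962 FPKM from young to old mice (SD, n = 8 each), while its mean count level was 9.22 and 9.48 CPM. The length implied by count per FPKM had a lowest, median and highest value of 2.45, 2.96 and 3.24 kb in young and 2.03, 2.19 and 2.74 kb in old mice, so the tables give different accounts of this gene. For Vwf the implied length ran from 3.71 to 7.17 kb across the young and old mice, with medians of 6.01 and 6.16 kb, and from 3.98 to 6.94 kb in control and 4.53 to 5.07 kb in G93a mice. For Kdr it stayed between 6.2 and 6.44 kb in all 4 groups. RSEM sets the length of a gene from the transcripts it assigns reads to, and isoforms were not analysed here.

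Abca1, a cholesterol exporter and 1 of the genes most like the members, rose in both comparisons (log2 fold change 0.66 with age and 2.46 in G93a mice, edgeR adjusted p = 7.81e-06 and 0.000361). It was the only 1 of the 5 most like genes called in both, and Ppp1r3b was called in G93a mice only. The 5 were picked for the highest r among 13647 genes over 16 libraries, and a link to the members was not tested.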
